A study of Mus musculus with 8 samples.

Results

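Messenger RNA levels of 9 genes, which encode cell cycle inhibitors, p53 or products of p53 target genes, were measured in single cells of the ascending aorta of old mice. The genes were the Cip/Kip inhibitors Cdkn1a, Cdkn1b and Cdkn1c, the Ink4 inhibitors Cdkn2a, Cdkn2c and Cdkn2d, the p53 gene Trp53, and the p53 target genes Mdm2 and Ccng1. They were chosen by symbol, and all 9 were found among the 32285 genes of the deposited table. Their counts are unique molecular identifiers (UMIs), which count captured transcript molecules.

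The cells came from digested tissue of the ascending thoracic aorta, taken from 3 wildtype mice aged 81, 84 and 88 weeks, with one mouse per hashtag, a barcoded antibody that marks the cells of one animal before pooling. The deposited table pools 4 gene expression and 4 hashtag libraries of one cell pool, so the replicate used below is the hashtag set, the cells of 1 animal (set 1, 81 weeks, set 2, 84 weeks, set 3, 88 weeks). All animals were old and untreated, with 1 animal per age, so no effect of age was measured. Every comparison was between cell classes of the same animals.

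Cell division is driven by cyclin-dependent kinases (Cdks), which a cyclin switches on. Cip/Kip proteins bind cyclin-Cdk complexes of several kinds, whereas Ink4 proteins bind Cdk4 and Cdk6 alone and keep them from D-type cyclins. The transcription factor p53 answers DNA damage and other stress by switching on target genes, among them Cdkn1a, which halts the cycle, Mdm2, which marks p53 for destruction, and Ccng1, a cyclin that acts on the p53 and Mdm2 circuit.

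Of 26916 barcodes, 11301 passed the filters, 360 were called doublets, and 4175 cells carried exactly 1 hashtag and were kept (569, 2554 and 1052 cells in sets 1, 2 and 3, with 5200412, 18049453 and 8192038 UMIs). Cells were clustered without the 9 genes, without the other gene lists used below and without mitochondrial and ribosomal genes, and the clusters were named from marker genes. The classes used were endothelial-like (987 cells), smooth muscle-like (881 cells), fibroblast-like (216 cells), T cell-like (1649 cells) and erythroid-like (155 cells), and 7 smaller classes were described as pools. Of the defining markers, all 9 endothelial, all 10 smooth muscle, all 9 fibroblast and all 10 T cell genes were enriched in the classes named after them. The median hashtag count was 1.38 times the calling cutoff in smooth muscle-like, 1.46 in fibroblast-like, 1.68 in T cell-like and 2.98 in endothelial-like cells. At 2 times the cutoff, 47, 49 and 91 smooth muscle-like cells remained in sets 1, 2 and 3. The animal of a cell is thus less certain outside the endothelium. Endothelial cells held a capillary-like cluster led by Gpihbp1 and Fabp4 (806 cells), a large-vessel-like cluster led by Cytl1, Bmp4 and Vwf, which also scored on venous (2.14), lymphatic (1.26) and endocardial (1.21) markers (78 cells), and an arterial-like cluster whose leading genes included capillary genes too (103 cells). The arterial-like cluster scored only 0.86 on arterial and 0.51 on capillary markers, and its second class was pericyte (1.938), so its name is uncertain. Without doublet removal it held 42, 67 and 49 cells in sets 1, 2 and 3, against 31, 43 and 29 with it. T cells held DNA replicating cells (236 cells), mitotic cells in 2 clusters (506 cells), selected or mature cells (169 cells) and resting double positive cells led by Rag1 (738 cells). The Rag1-positive, double positive state belongs to developing thymocytes rather than to the arterial wall, and a cluster of 23 epithelial-like cells was led by the thymic epithelial genes Tbata and Prss16. The source of these cells was not tested.

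T cell RNA was also counted in the vessel wall classes: at least 1 T cell marker UMI was found in 41.1% of endothelial-like, 67.3% of smooth muscle-like and 65.3% of fibroblast-like cells. T cell markers summed to 152, 609 and 239 counts-per-million units (CPM, the UMIs of a gene over all UMIs of the summed cells) in endothelial-like sums of sets 1, 2 and 3, against 194, 901 and 525 CPM in smooth muscle-like and 151, 1100 and 833 CPM in fibroblast-like sums. In T cell-like sums they lay between 9130 and 9300 CPM. Results that moved when the cells with T cell RNA were left out are named where they stand.

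Each level below is the CPM of a gene over the cells of a class in 1 hashtag set, with its mean ± SD over sets. A gene was called when edgeR's quasi-likelihood test gave a Benjamini-Hochberg adjusted p under 0.05 over all genes tested and the fold change was at least 1 on the log2 scale. Fold changes are followed by their standard error. The p-values rest on 3 animals. For T cell subsets and erythroid-like cells they rest on 2 animals (sets 2 and 3), since set 1 held too few cells. They combine each gene's own spread between animals, with 2 or 1 degrees of freedom, and a spread shared across genes. The shared part had from 7.7 to an infinite number of degrees of freedom, so it carried most of the weight. Comparisons that share a class share its sums, so their values are set side by side and are not independent.

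Cdkn1a, which encodes p21, was high in capillary-like and arterial-like endothelial cells and low in large-vessel-like endothelium, smooth muscle and T cells. The gene lies on chromosome 17 (GRCm38.p6, chr17:29090979-29100722, plus strand, ENSMUSG00000023067). RefSeq gives 2 start sites for it in this build, 2790 bases apart, and the 300 bases around each are shown because one carries the letters of a p53 site and the other does not. Each run reads 5′ to 3′ from 250 bases before the start to 50 after it, and capitals mark a pair of p53 core letters (CATG, any 6 bases, CATG) in the first and GC boxes (GGGCGG) in the second.
Cdkn1a upstream start, chr17:29090729-29091028, plus strand: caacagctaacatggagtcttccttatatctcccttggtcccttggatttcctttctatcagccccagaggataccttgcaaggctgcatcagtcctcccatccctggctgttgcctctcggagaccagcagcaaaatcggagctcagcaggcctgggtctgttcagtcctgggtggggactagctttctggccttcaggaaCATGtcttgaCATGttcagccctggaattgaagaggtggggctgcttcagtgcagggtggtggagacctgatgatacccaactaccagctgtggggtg
Cdkn1a downstream start, chr17:29093519-29093818, plus strand: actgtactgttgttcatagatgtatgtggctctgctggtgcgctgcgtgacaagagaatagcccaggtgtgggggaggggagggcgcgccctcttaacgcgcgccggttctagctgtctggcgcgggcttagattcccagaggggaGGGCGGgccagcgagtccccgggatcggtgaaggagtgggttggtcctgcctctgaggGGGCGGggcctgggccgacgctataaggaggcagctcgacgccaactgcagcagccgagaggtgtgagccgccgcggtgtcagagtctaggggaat
The core pair lay 48 bases before the upstream start, and that window held 2 CpG dinucleotides with a GC content of 54.7%. The downstream window held 23 CpG dinucleotides, a GC content of 64.7% and 2 GC boxes. Over all 32851 RefSeq windows of this length, searched on both strands, the median window held 7.0 CpG and 52.7% GC, 0.712% held the core pair and 35.7% held a GC box. A letter match describes the window and does not show binding, and 3′ counts do not tell which start was used.

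Cdkn1a stood at 378, 881 and 627 CPM in endothelial-like sums of sets 1, 2 and 3, against 85.5, 52.0 and 61.5 CPM in smooth muscle-like sums. The endothelial values were all above the smooth muscle values, and means were 629 ± 252 and 66.3 ± 17.2 CPM (SD, n = 3 each), a log2 fold change of 3.27 ± 0.29 or 9.66-fold (edgeR adjusted p = 5.2e-06). Against fibroblast-like sums, which held 122, 169 and 130 CPM, the gene was also higher in endothelial cells, by 2.16 ± 0.16 on the log2 scale (4.46-fold, adjusted p = 9e-08). Of all Cdkn1a UMIs of kept cells, 74.2% were in endothelial-like cells, which held 18.1% of all UMIs. The 1-hashtag filter kept classes unevenly, so these are not shares of the tissue. With cells of no hashtag added, 1 smooth muscle-like cluster alone held 1984 cells, against 881 kept smooth muscle-like cells. The endothelial-like cluster led by Gpihbp1 then held 982 cells, against 806 kept. Dissociation stress genes, 19 immediate early and heat shock genes known to respond to tissue digestion, summed to 6570 to 8890 CPM in endothelial-like, 5450 to 5850 CPM in smooth muscle-like and 2810 to 3150 CPM in fibroblast-like sums, and their part in these differences was not tested.

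Within the endothelium, Cdkn1a was low in the large-vessel-like cluster. It stood at 65.5, 19.1 and 50.7 CPM there, against 408, 1030 and 835 CPM in capillary-like sums of sets 1, 2 and 3. The groups did not overlap, and the gene was lower in large-vessel-like cells by a log2 fold change of -4.09 ± 0.38 (17.0-fold lower, adjusted p = 1.8e-05), or -3.50 without set 2. Arterial-like sums held 509, 748 and 596 CPM and overlapped the capillary-like range, with a log2 fold change of -0.29 (95% interval -0.54 to -0.04, adjusted p = 0.12). Dissociation stress genes were lower too: they summed to 3290 to 4580 CPM in large-vessel-like, 7790 to 8060 CPM in arterial-like and 6840 to 11000 CPM in capillary-like sums, and 10 of the 18 tested were lower and 2 higher in large-vessel-like cells. Over all genes, 21.6% were called between large-vessel-like and capillary-like cells. Erythroid markers summed to 772 to 6540 CPM in large-vessel-like and 10300 to 20600 CPM in capillary-like sums, and smooth muscle markers to 12700 to 16800 CPM in arterial-like and 1490 to 2160 CPM in capillary-like sums. The part of these RNAs in the Cdkn1a difference was not tested.

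From low to high, Cdkn1a averaged 8.35 ± 4.1 CPM in T cell-like, 45.1 ± 23.7 CPM in large-vessel-like, 66.3 ± 17.2 CPM in smooth muscle-like, 140 ± 24.8 CPM in fibroblast-like, 618 ± 121 CPM in arterial-like and 759 ± 320 CPM in capillary-like sums (SD, n = 3 each). Of neighbours in this order, large-vessel-like and smooth muscle-like ranges overlapped, and so did arterial-like and capillary-like ranges. Smooth muscle-like cells were lower than fibroblast-like cells by -1.16 ± 0.17 on the log2 scale (adjusted p = 1.6e-05). That call was lost in 4 alternatives: the fold change was -0.70 without set 2, -0.47 (adjusted p = 0.25) without cells holding T cell RNA, -0.97 in a joint fit of all classes and -0.95 with a stricter hashtag threshold. Smooth muscle was itself uneven: a cluster led by Tnnt2 and Actg2 (226 cells) held 216, 115 and 89.5 CPM, against 47.6, 37.4 and 55.0 CPM in a cluster led by Tagln and Myh11 (627 cells). Of small pools, 20 chondrocyte or tendon-like cells held 339 CPM (exact 95% Poisson interval 256 to 441) and 31 mesothelial-like cells 241 CPM (198 to 291); these intervals cover counting error only.

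**Figure D1:**
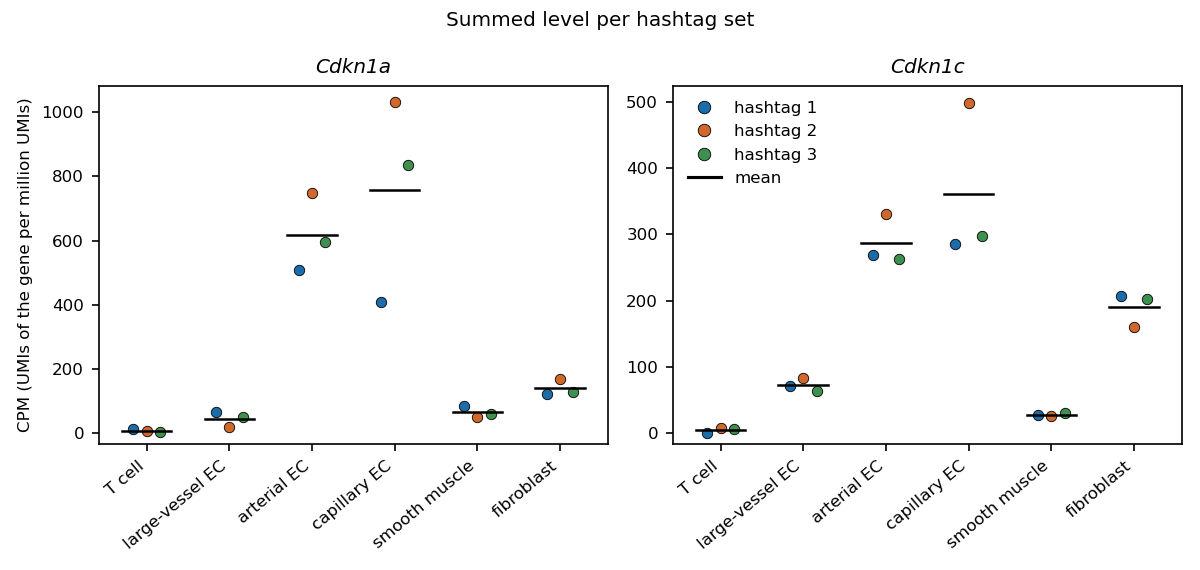
Cdkn1a (left) and Cdkn1c (right) in CPM, for 6 cell groups (EC, endothelial cell). Each point is the sum of 1 hashtag set (1 animal) and each bar is the mean of the 3 sets; for Cdkn1a all arterial and capillary points lie between 408 and 1030 CPM, above every point of the other 4 groups, and for Cdkn1c they lie between 263 and 499 CPM.

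The difference was also seen per cell at equal depth. Had every cell been read to 1000 UMIs, which all kept cells reach, a UMI of Cdkn1a would be expected in 1.08 ± 0.805% of T cell-like, 4.67 ± 2.58% of large-vessel-like, 5.27 ± 1.41% of smooth muscle-like, 9.94 ± 1.02% of fibroblast-like, 49.5 ± 6.24% of arterial-like and 48.3 ± 13.8% of capillary-like cells (SD, n = 3 sets each). At full depth the shares were 3.66%, 19.9%, 27.0%, 35.1%, 92.9% and 85.1% in the same order, with median depths of 3824, 8202.5, 12132, 8107, 5292 and 3980 UMIs per cell. T cells served as the class with little Cdkn1a, whose share free RNA in the droplets could give, and the mean shares of the other 5 groups were above it. In capillary-like cells the median cell held 1, 4 and 3 UMIs of Cdkn1a in sets 1, 2 and 3 and the top 10% of cells held 36.7%, 31.5% and 32.0% of them. In fibroblast-like cells the median cell held 0 and the top 10% held 68.1%, 66.1% and 68.6%, so a minority of these cells carried most of the transcripts.

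Cdkn1c, which encodes p57 and is an imprinted gene, lies on chromosome 7 (chr7:143458339-143461059, ENSMUSG00000037664). It too was high in endothelial-like cells, and fibroblast-like cells held it as well. It stood at 255, 429 and 241 CPM in endothelial-like sums, against 28.3, 25.8 and 30.3 CPM in smooth muscle-like sums, a log2 fold change of 3.49 ± 0.19 (11.3-fold, adjusted p = 1.3e-07) with no overlap. Fibroblast-like sums held 208, 160 and 203 CPM. All 3 endothelial values were above these, but the log2 fold change of 0.73 ± 0.2 (adjusted p = 0.0097) missed the fold threshold, and smooth muscle-like cells were lower than fibroblast-like cells by -2.65 ± 0.13 (6.29-fold lower, adjusted p = 4.3e-12).

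Large-vessel-like cells held 71.0, 83.9 and 63.9 CPM of Cdkn1c, against 286, 499 and 298 CPM in capillary-like cells, which was lower by -2.29 ± 0.2 on the log2 scale (4.91-fold lower, adjusted p = 1.2e-05). Arterial-like cells held 269, 331 and 263 CPM (log2 fold change -0.36, 95% interval -0.63 to -0.09, adjusted p = 0.061). From low to high, levels ran from T cell-like through smooth muscle-like, large-vessel-like, fibroblast-like and arterial-like to capillary-like sums, and of neighbours in this order the arterial-like and capillary-like ranges overlapped. At 1000 UMIs, Cdkn1c was expected in 0.421 ± 0.398% of T cell-like, 2.74 ± 0.263% of smooth muscle-like, 5.85 ± 0.635% of large-vessel-like, 14.2 ± 1.72% of fibroblast-like, 25.5 ± 3.27% of arterial-like and 26.9 ± 6.66% of capillary-like cells.

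Cdkn1a and Cdkn1c were found in the same capillary-like cells about as often as their separate shares give. After thinning to 1000 UMIs, 14, 69 and 42 cells of sets 1, 2 and 3 held both, where independence gives 13.5, 68.1 and 38.4 of 197, 361 and 248 cells. Across 38 class-by-set sums of 17 groups, Cdkn1c was among the 3 genes most like Cdkn1a (Pearson r = 0.90 of log2(CPM + 10)), beside Mcc (0.91) and Lnx1 (0.88), and the genes most like Cdkn1c were Sptbn1 (0.94), Ptprg (0.92) and Pcdh19 (0.92). These correlations describe a pattern over classes whose sums share animals and libraries.

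Cdkn1b, which encodes p27 and holds cells in a resting state, lies on chromosome 6 (chr6:134920401-134925525, plus strand). It was level across the vessel wall, with means of 95.6 ± 13.8 CPM in endothelial-like, 93.0 ± 11.3 CPM in smooth muscle-like and 94.1 ± 10.2 CPM in fibroblast-like sums (SD, n = 3). The ranges overlapped and the log2 difference of endothelial-like from smooth muscle-like cells lay within -0.14 to 0.24 (95% interval, adjusted p = 0.66). T cells stood apart, with 231, 231 and 235 CPM, against 86.6, 112 and 88.8 CPM in endothelial-like sums, which was higher by 1.11 ± 0.14 (2.16-fold, adjusted p = 2.8e-14). This value lies close to the fold threshold and was below it with DESeq2 (0.97), with DESeq2's size factors (0.93), a scaling that moved the median of all genes in this comparison by -0.2, and with cells under 10% mitochondrial UMIs (0.73).

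In endothelial-like against smooth muscle-like cells, 2 of the 8 members tested were called, where 30.3% of 10676 genes were called; in endothelial-like against fibroblast-like cells 2 of 8, where 27.4% of 9454 were; and in smooth muscle-like against fibroblast-like cells 2 of 8, where 21.4% of 9987 were. In large-vessel-like against capillary-like cells 2 of 7 members were called, where 21.6% of 7377 genes were, and in arterial-like against capillary-like cells 0 of 7, where 12.5% of 6951 were; in this last comparison 2 members had an unadjusted p under 0.05 and DESeq2 called 0 too. These shares lie near the background, so the results concern single genes and not the 9 as a group. The median log2 fold changes of the members tested were 0.17, 0.04, -0.26, -0.60 and -0.29 in the same order, against medians of all genes between -0.03 and 0.01.

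**Figure D2:**
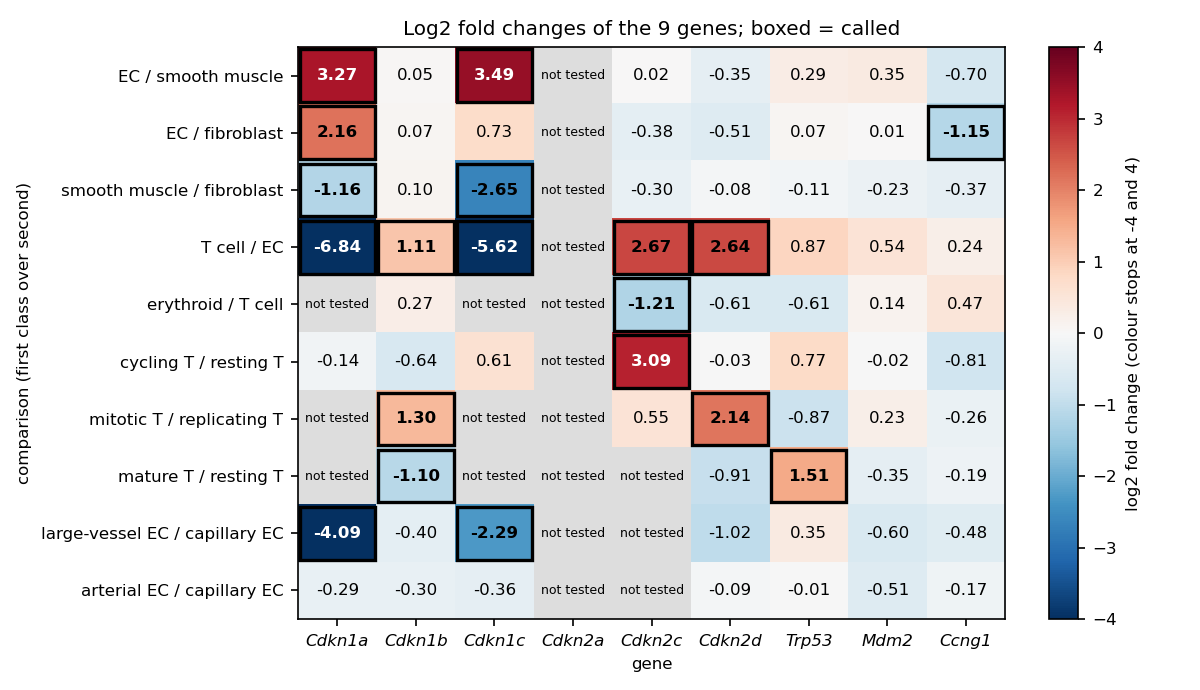
Log2 fold changes of the 9 genes (columns) in 10 comparisons (rows), each the first class over the second, from edgeR fits of sums per hashtag set. Boxed values were called (adjusted p under 0.05 and at least 1 on the log2 scale), colours stop at -4 and 4, and Cdkn2a was too low to be tested in any comparison.

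T cell-like cells held little Cdkn1a and Cdkn1c and more Cdkn1b, Cdkn2c and Cdkn2d. Of the 8 members tested in T cell-like against endothelial-like cells, 5 were called, 3 higher and 2 lower, where 48.3% of 10541 genes were called, and the members' median log2 fold change was 0.71, against 0.04 for all genes. Cdkn1a was lower in T cells at 12.5, 8.3 and 4.28 CPM (log2 fold change -6.84 ± 0.22, adjusted p = 2.1e-204), and Cdkn1c was lower at 0, 8.77 and 6.73 CPM (-5.62 ± 0.21, adjusted p = 9.2e-157). Dissociation stress genes were also lower for 17 of 19 tested, and their part was not tested. Cyclins, Cdks and Rb proteins were higher for 19 of 22 tested list genes and lower for 2, led by the mitotic cyclin Ccnb2 (175 ± 28.8 CPM in T cell-like and 1.85 ± 2.13 CPM in endothelial-like sums), while the D-type cyclin Ccnd1 was lower (2.01 ± 1.86 and 177 ± 85.3 CPM).

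Cdkn2c, which encodes p18, lies on chromosome 4 (chr4:109660876-109666756, minus strand). It stood at 81.1, 84.1 and 87.4 CPM in T cell-like sums, against 8.07, 14.2 and 11.5 CPM in endothelial-like sums, higher by 2.67 ± 0.21 on the log2 scale (6.37-fold, adjusted p = 9.6e-35). Of kept cells, T cells held 69.4% of its UMIs and 26.0% of all UMIs, shares that depend on the uneven hashtag filter. The T cell class mixes subsets, and 742 of its 1649 cells were cycling. Resting double positive cells averaged 17.0 CPM and selected or mature cells 5.31 CPM (n = 2 sets), near the endothelial-like mean of 11.3 CPM. Levels of Cdkn2c overlapped between the classes of the vessel wall, with a log2 difference of endothelial-like from smooth muscle-like cells of 0.02 (95% interval -0.4 to 0.45).

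Within T cells, Cdkn2c was higher in cycling than in resting cells, but not in every cycling cluster. Cycling cells (DNA replicating and mitotic together) averaged 125 ± 3.24 CPM and resting double positive cells 17.0 ± 4.71 CPM (SD, n = 2 sets), higher by 3.09 ± 0.18 on the log2 scale (8.49-fold, adjusted p = 9.9e-09). It was the 1 member called of 8 tested there, where 24.1% of 8991 genes were called. With cells under 10% mitochondrial UMIs the log2 fold change was 4.94 ± 0.78. That limit left only 55 and 12 resting cells in sets 2 and 3, hence few Cdkn2c UMIs, so the larger value is imprecise. By cluster, sets 2 and 3 held 180 and 189 CPM in the mitotic cluster led by Hist1h2ap, 47.3 and 18.3 CPM in the mitotic cluster led by Cenpf and Ube2c, 81.6 and 118 CPM in DNA replicating cells, 10.6 and 0 CPM in selected or mature cells and 13.6 and 20.3 CPM in resting cells. The 2 mitotic clusters did not overlap, and the Cenpf and Ube2c cluster lay below the replicating cells in both sets. Against resting cells it was higher in set 2 and slightly lower in set 3. The set 3 value rests on 30 cells with 219061 UMIs of all genes, hence on few Cdkn2c UMIs, so the order in that set is uncertain. The Hist1h2ap cluster (354 of the 506 mitotic cells) was named from its mitotic marker score, but 5 of its 10 leading genes were histone genes of DNA synthesis, which also led the replicating cells, so its name is uncertain. At 1000 UMIs, Cdkn2c was expected in 14 ± 1.29% of mitotic, 10.4 ± 2.79% of replicating and 1.73 ± 0.48% of resting cells, whose median depths were 6256.5, 5861 and 2859 UMIs. A smooth muscle-like cluster of 28 cells led by Mki67, Cenpf and Top2a held 63.9 CPM of Cdkn2c in set 2 (23 cells), where the other 2 smooth muscle clusters held 10.2 and 16.4 CPM, with 1 set and no test. All 23 cells held T cell RNA, against 79.1% and 70.5% of cells in the other clusters, and T cell markers summed to 2170 CPM, against 849 and 700 CPM. The part of T cell RNA in this Cdkn2c value was not tested.

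Cdkn2d, which encodes the Ink4 protein p19 (not the p19Arf of Cdkn2a), lies on chromosome 9 (chr9:21288459-21291421, minus strand). It stood at 225, 137 and 138 CPM in T cell-like sums, against 17.6, 20.7 and 25.9 CPM in endothelial-like sums, higher by 2.64 ± 0.18 (6.23-fold, adjusted p = 1.2e-49); set 1, the highest, held 34 T cells. In the vessel wall it averaged 21.4 ± 4.21 CPM in endothelial-like sums, below all smooth muscle-like sums (27.6 ± 1.87 CPM, adjusted p = 0.11) and overlapping fibroblast-like sums (29.2 ± 7.79 CPM, adjusted p = 0.14). Cycling and resting T cells overlapped, at 141 ± 5.07 and 146 ± 6.36 CPM, with a log2 difference between -0.24 and 0.18 (95% interval). The cycling clusters differed among themselves. Mitotic cells held 183 and 193 CPM in sets 2 and 3, against 32.8 and 64.0 CPM in DNA replicating cells, with no overlap. The means were 188 ± 6.73 and 48.4 ± 22.1 CPM (SD, n = 2), higher by 2.14 ± 0.17 (4.41-fold, adjusted p = 1.3e-32). By cluster, Cdkn2d stood at 220 and 247 CPM in the Hist1h2ap cluster and at 96.8 and 82.2 CPM in the Cenpf and Ube2c cluster. Both were above the replicating values, and the Hist1h2ap cluster held more than the Cenpf and Ube2c cluster in both sets.

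Cdkn1b was also lowest in DNA replicating cells among the cycling clusters. Mitotic cells averaged 260 ± 21.4 CPM and DNA replicating cells 86.0 ± 45.7 CPM, higher by 1.30 ± 0.14 (2.46-fold, adjusted p = 1.4e-19; with DESeq2 1.62 and adjusted p = 0.07). Mitotic sums held 245 and 275 CPM in sets 2 and 3, against 118 and 53.7 CPM in replicating sums, with no overlap. The Hist1h2ap cluster held 240 and 305 CPM and the Cenpf and Ube2c cluster 258 and 215 CPM. Resting cells held the most, 309 and 361 CPM in sets 2 and 3, and cycling cells as a whole were below them by -0.64 ± 0.1, which passed the p threshold (adjusted p = 0.0002) but not the fold threshold. Of the 6 members tested between mitotic and replicating cells, 2 were called, where 7.52% of 7836 genes were; the members' median was 0.39, against 0.00 for all genes. Of the cyclins, Cdks and Rb proteins, 5 were higher in mitotic cells, led by Ccnb1 (2.67), Ccnb2 (2.42) and Cks2 (1.78), and 6 lower, led by E2f1 (-2.66), Ccne2 (-2.38) and Ccne1 (-1.66), genes of entry into DNA synthesis.

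Cdkn1b and Cdkn2d were found in the same cells about as often as their separate shares give. After thinning, 18 and 4 mitotic cells of sets 2 and 3 held both, where independence gives 15.8 and 3.54, and in resting cells 25 and 6 held both, where independence gives 24.7 and 6.87. At 1000 UMIs, Cdkn1b was expected in 23.0 ± 3.51% of mitotic cells (3 sets), 9.06 ± 5.54% of replicating and 26.6 ± 1.49% of resting cells (2 sets each). Cdkn2d was expected in 22.6 ± 7.82%, 4.49 ± 1.23% and 13.7 ± 0.625% of the same cells. Replicating cells were lowest of these 3 subsets for both genes.

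**Figure D3:**
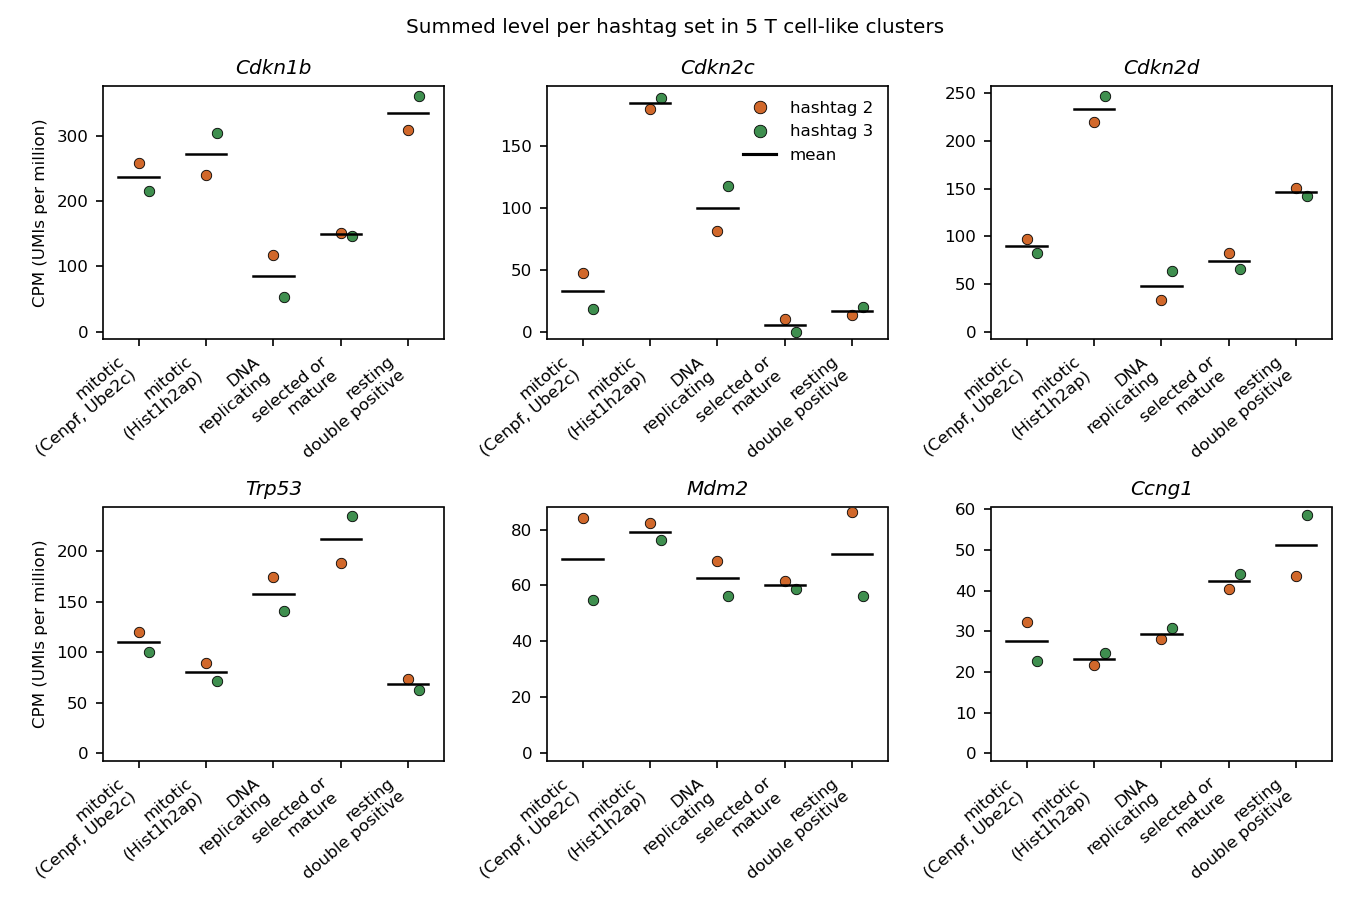
Levels of 6 genes in CPM in 5 T cell-like clusters, with 1 point per hashtag set (sets 2 and 3, set 1 held too few cells) and a bar at the mean. Cdkn2c peaks in the Hist1h2ap mitotic cluster at 180 and 189 CPM, Cdkn1b and Cdkn2d are lowest in DNA replicating cells among the first 3 clusters, and Trp53 is highest in selected or mature cells at 189 and 235 CPM.

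Cdkn2a, the gene of p16Ink4a and p19Arf, which share 3′ ends that the counts cannot tell apart, lies on chromosome 4 (chr4:89274473-89294619, minus strand). It was nearly absent from the counts: 8 UMIs in 6 of 4175 kept cells. Of these, 5 UMIs were in 3 of 30 macrophage-like cells, all of set 3 (27.7 CPM, exact 95% Poisson interval 9.0 to 64.7), and 1 each in neutrophil-like, endothelial-like and T cell-like cells. In 881 smooth muscle-like cells it was at 0, which allows up to 0.263 CPM, and in 216 fibroblast-like cells at 0, which allows up to 1.6 CPM (3 counts each, counting error only). Over 5225 smooth muscle-like cells of all hashtag states, which hold cells of any animal, 9 UMIs gave 0.144 CPM. The gene was tested in no comparison, since its counts did not pass the filter.

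Trp53 lies on chromosome 11 (chr11:69580348-69591873, plus strand). Its message was present in every class, between 29.5 ± 11.7 CPM in erythroid-like and 212 ± 32.5 CPM in selected or mature T cells (SD, n = 2 sets each). The erythroid-like value is lowered by the large share of haemoglobin and other erythroid RNA in the total. On the scale of edgeR's normalisation, Trp53 in erythroid-like against T cell-like cells was not called (log2 fold change -0.61 ± 0.33, edgeR adjusted p = 0.29). In the vessel wall, endothelial-like sums held 68.2, 50.8 and 60.8 CPM, smooth muscle-like sums 52.7, 48.6 and 43.9 CPM, and fibroblast-like sums 78.2, 45.3 and 53.4 CPM, ranges that overlapped. T cell-like sums held 150, 113 and 103 CPM, all above the endothelial-like values (log2 fold change 0.87 ± 0.15, adjusted p = 4.8e-08), just under the fold threshold; the value was 1.01 without cells holding T cell RNA and 1.24 with cells thinned to 1000 UMIs.

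Selected or mature T cells had the highest mean of the T cell subsets. They held 189 and 235 CPM of Trp53 in sets 2 and 3, against 73.8 and 63.1 CPM in resting double positive cells, higher by 1.51 ± 0.23 (2.86-fold, adjusted p = 5.3e-09). Cdkn1b was lower there, at 151 and 147 CPM against 309 and 361 CPM (-1.10 ± 0.18, adjusted p = 1.9e-07), and Cdkn2d missed the fold threshold (-0.91 ± 0.25, adjusted p = 0.003). These were 2 of 5 members tested, where 12.0% of 5905 genes were called, with a members' median of -0.35 against 0.00 for all genes. The immediate early genes Nr4a1 (4.17 on the log2 scale) and Egr1 (2.96) were higher in the same cells, and 4 of 12 dissociation stress genes tested were. Mitotic cells held 98.3 and 81.3 CPM of Trp53, against 175 and 141 CPM in DNA replicating cells (log2 fold change -0.87 ± 0.14, adjusted p = 2e-08, under the fold threshold). Cycling T cells averaged 112 ± 12.8 CPM, against 68.4 ± 7.55 CPM in resting cells (0.77 ± 0.12, adjusted p = 0.00015, under the fold threshold). A neutrophil-like cluster of 85 cells, led by S100a9 and S100a8 and also by antigen presentation genes such as Cd74, held 168 and 200 CPM.

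Mdm2 lies on chromosome 10 (chr10:117688875-117710758, minus strand) and encodes the ubiquitin ligase of p53. No comparison called it. It averaged 65.8 ± 12.1 CPM in T cell-like, 43.8 ± 6.15 CPM in endothelial-like, 34.4 ± 2.97 CPM in smooth muscle-like and 43.3 ± 9.75 CPM in fibroblast-like sums (SD, n = 3). The T cell difference from endothelial cells, 0.54 ± 0.17 on the log2 scale, passed the p threshold (adjusted p = 0.0028) but not the fold threshold. Large-vessel-like cells held 32.3 ± 5.4 CPM and capillary-like cells 48.2 ± 9.05 CPM (95% interval of the log2 difference -1.16 to -0.04, adjusted p = 0.15). The Cdkn1a difference in the same sums was -4.09; the difference between both genes was not tested.

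Ccng1 lies on chromosome 11 (chr11:40748552-40755309, minus strand) and encodes cyclin G1. It was lower in endothelial-like cells, at 24.9, 30.6 and 22.4 CPM, than in fibroblast-like cells, at 46.9, 48 and 91.5 CPM, by -1.15 ± 0.26 on the log2 scale (2.22-fold lower, adjusted p = 0.0027). Set 3 carried much of this: without it the value was -0.72 (adjusted p = 0.044), and without doublet removal it was -0.95. Against smooth muscle-like cells, at 45.2, 43.5 and 40.3 CPM, the difference was -0.70 ± 0.15 (adjusted p = 0.0027), under the fold threshold, with no overlap. Cycling T cells held 26.2 ± 0.532 CPM and resting cells 51.1 ± 10.5 CPM (-0.81 ± 0.2, adjusted p = 0.0052, under the fold threshold). Against fibroblast-like cells, endothelial-like cells were higher in Cdkn1a and lower in Ccng1, the latter a call lost without set 3 and without doublet removal. The part of p53 in either difference was not tested.

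**Figure D4:**
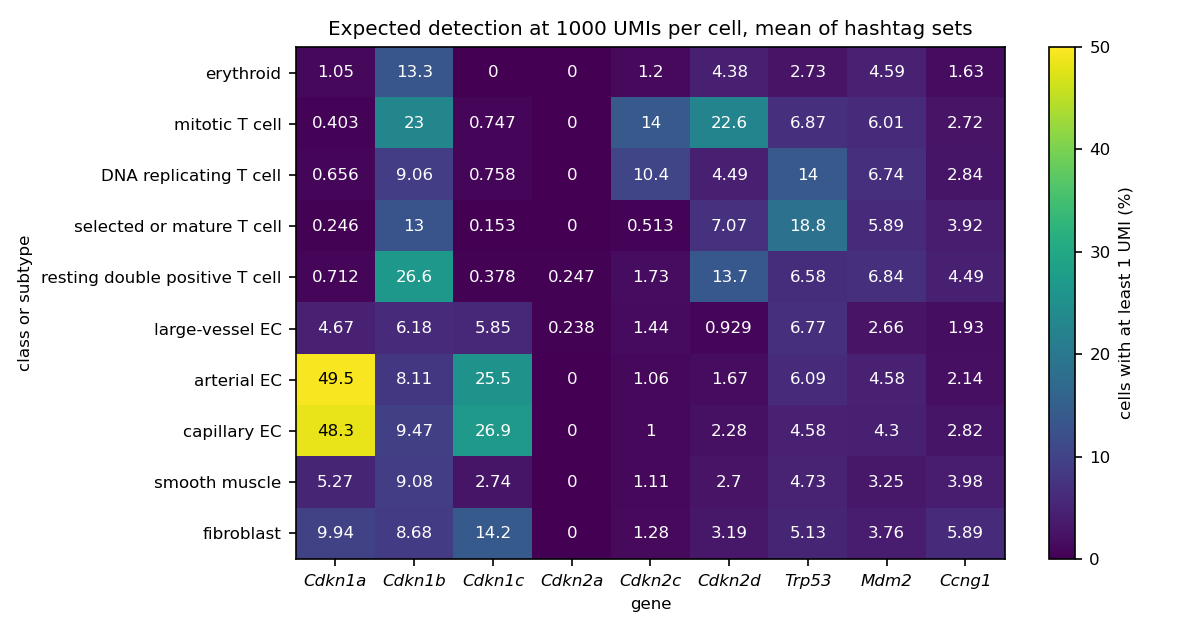
Expected share of cells with at least 1 UMI of each gene, in percent, if every cell held 1000 UMIs, as the mean over hashtag sets, for 10 classes and subtypes (rows). Cdkn1a stands at 49.5% and 48.3% in arterial and capillary cells, and Cdkn2a at or near 0 in every row.

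Other p53 target genes were called in both directions. Over all genes, 30.3% were called in endothelial-like against smooth muscle-like cells and 21.6% in large-vessel-like against capillary-like cells. In cycling against resting T cells 24.1% were. No result about the list as a group is drawn from its counts. Of 26 listed, 21 were tested in endothelial-like against smooth muscle-like cells, 5 higher and 3 lower, with a median of 0.11; Plk2 was higher (70.0 ± 11.5 and 0.22 ± 0.253 CPM), and Perp (-2.39), Sesn1 (-1.32) and Trp53inp1 (-1.02) were lower. In large-vessel-like against capillary-like cells, 5 of 17 were higher and 3 lower; Phlda3, an inhibitor of the kinase Akt, was higher (122 ± 1.68 and 9.54 ± 1.11 CPM, log2 fold change 3.64 ± 0.27, adjusted p = 2.9e-06), as were Cd82 (3.49) and Ephx1 (1.43), while Btg2 was lower (-1.03). In cycling against resting T cells 2 of 17 were higher, one of them Rps27l (1.64), and 6 lower, among them Trp53inp1 (285 ± 19.7 and 1040 ± 21.4 CPM), Fas (-1.49) and Sesn1 (-1.29).

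Of transcription factors known to act on Cip/Kip genes, 11 were tested in endothelial-like against smooth muscle-like cells, 6 higher and 1 lower, with a median of 2.71 against 0.01 for all genes. Over all genes, 30.3% were called there. The flow-responsive factors Klf4 (847 ± 173 and 32.6 ± 0.855 CPM) and Klf2 (1550 ± 122 and 73.7 ± 20.1 CPM) and the Notch target Hes1 (4.16) were higher. In large-vessel-like against capillary-like cells, 0 of 8 were higher and 2 lower, Hes1 (-2.33) and Klf4 (462 ± 55.5 and 949 ± 236 CPM, -1.02 ± 0.21). That count lay near the 21.6% called over all genes there. In the same comparison the heat shock genes Hspa1a (-3.31), Hspa1b (-3.06) and Hspb1 (-2.65) were lower, while Ier3 (2.90) and Junb (1.41) were higher. The p53 regulator Chek2, a DNA damage kinase, was lower in large-vessel-like cells too (7.12 ± 3.58 and 66.1 ± 16.2 CPM, -3.37 ± 0.42, adjusted p = 0.00013).

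Senescence-linked genes gave no common direction in endothelial cells. Over all genes, 30.3% were called against smooth muscle-like cells, 27.4% against fibroblast-like cells and 24.1% in cycling against resting T cells. Of 9 tested against smooth muscle-like cells, 2 were higher and 3 lower, among them Igfbp3 (5.11), which was higher, and Igfbp7 (-1.21), which was lower. Against fibroblast-like cells 1 of 9 was higher and 2 lower, with the matrix protease Mmp3 at 1.67 ± 1.18 CPM in endothelial-like and 206 ± 99.9 CPM in fibroblast-like cells. In cycling against resting T cells, 2 of 5 tested were higher and 2 lower, with a median of -0.91: the nuclear lamina gene Lmnb1 (2.21) and Hmgb1 (1.6) were higher, and Igfbp7 (-1.06) was lower.

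Erythroid-like cells, of which haemoglobin and other erythroid markers made up 449000 to 496000 CPM, were set against T cells in sets 2 and 3, on the scale edgeR's normalisation gives. Of 6 members tested, 1 was called, where 7.78% of 8010 genes were: Cdkn2c, at 17.9 and 14.2 CPM against 84.1 and 87.4 CPM in T cells, was lower by -1.21 ± 0.42 (adjusted p = 0.04). The adjusted p rose above 0.05 in 4 alternatives: with DESeq2 (log2 fold change -1.28, adjusted p = 0.48), with thinned cells (-1.38, adjusted p = 0.65), with cells under 10% mitochondrial UMIs (-1.01, adjusted p = 0.2) and with a stricter hashtag threshold (-0.64, adjusted p = 0.8). The call was thus lost in each, while the fold change stayed beyond the fold threshold in all but the last. Of the cyclins, Cdks and Rb proteins tested, 10 of 21 were lower and 0 higher, led by Ccna2 (-3.09) and Ccnb1 (-2.57). T cell markers summed to 4600 to 5270 CPM in erythroid-like cells, and 94.2% of these cells held at least 1 T cell marker UMI. Without those cells, 3, 6 and 0 cells remained in sets 1, 2 and 3, too few for a sum. The comparison is thus with cells that nearly all carried T cell RNA, and the part of that RNA was not tested.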

How the data were processed

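Per the labels' protocols, the tissue was digested for 60 min with collagenase and elastase, dead cells were removed, and libraries were made with a droplet kit that reads 3′ ends. The deposited table holds counts of UMIs per gene and barcode, and hashtag counts, made with Cell Ranger 6.0.1 per the file headers; mm10 and Seurat 4.0.5 are named per the submitters' processing notes. The authors deposited these counts without normalisation. Hashtags were read with Seurat 5.3.0 (HTODemux, quantile 0.99). Cells with at least 500 genes, 1000 UMIs and under 15% mitochondrial UMIs were kept, doublets were called by Scrublet in scanpy 1.11.5 and removed, and cells were clustered by Leiden (igraph 0.11.9, resolution 0.8). The classes are rebuilt from markers and may differ from the authors' own. UMIs were summed per hashtag set and class (at least 10 cells) and tested with edgeR 4.0.16 (TMM, quasi-likelihood test, hashtag set as block, Benjamini-Hochberg); DESeq2 1.42.0 was an alternative. In 3 comparisons (T cell with endothelial, erythroid with T cell, mitotic with replicating) edgeR's prior degrees of freedom were infinite, so all genes shared 1 trend of spread and p-values are very small. Mature with resting T cells came close, with 210 prior and 1 residual degrees of freedom. In these comparisons a gene's own spread between animals had little or no weight.

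The block rests on the sums of 1 set coming from the same animal. Deviations of 2127 genes correlated at -0.06 to 0.43 (median 0.2) between classes of the same set and at -0.36 to 0.11 (median -0.08) between classes of different sets. Deviations from a mean of 3 sets sum to 0, so positive values within sets bring negative ones between sets. Within set 3 alone the values lay between -0.06 and 0.11, no higher than between different sets. T cell RNA in the wall classes also differed between sets. These values therefore cannot show that the sums of a set come from 1 animal. Scripts were tested on simulated counts. Named in the text are all 9 members and, of each other list, up to 3 called genes each way with the largest change, the same sign in every set and at least 50 CPM in the higher class, apart from a few genes that are not reported here; the small pools and clusters were chosen after their values were seen. The members and lists were chosen with earlier results of these data known. RefSeq promoter windows matched 8 of the 9 members by symbol. Detection at 1000 UMIs is the expectation under random thinning.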

Additional observations from a re-analysis of the deposited data

Results flagged for a closer look

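Cells with no clear hashtag were outside the comparisons. When 10408 cells, the kept ones and those with no hashtag, were clustered together, 2 clusters took names that no cluster of the kept cells had. In 17 Schwann or glial-like cells, Cdkn1a stood at 724 CPM (exact 95% Poisson interval 557 to 927, 63 UMIs) and Cdkn1c at 57.5 CPM (18.7 to 134, 5 UMIs). In 135 pericyte-like cells, led by Rgs5 and Notch3, Cdkn1a stood at 69.3 CPM (54.7 to 86.7) and Cdkn1c at 47.7 CPM (35.7 to 62.4). These values were listed because they exceed the limit that a count of 0 allows, which sets no background for free RNA; T cell-like cells of the same pool held 8.93 CPM of Cdkn1a and 7.73 CPM of Cdkn1c. The Schwann or glial-like value of Cdkn1c rests on 5 UMIs, and expression in those cells is not claimed from it. Cells of all animals are mixed in these values, so they have no replicate and no test.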

How the results depend on the processing

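Of 115 alternative counts of called genes, 96 lay within 1.5 times the main count. Comparisons are given as endothelial against smooth muscle, endothelial against fibroblast, smooth muscle against fibroblast, T cell against endothelial, erythroid against T cell, cycling against resting, mitotic against replicating, mature against resting, large-vessel against capillary and arterial against capillary. Thinning cells to 1000 UMIs gave 1578, 1091, 695, 2369, 136, 1178, 238, 288, 464 and 152 called genes in this order, against 3239, 2587, 2133, 5092, 623, 2163, 589, 710, 1592 and 868; fewer UMIs were tested. DESeq2 gave 246 (erythroid), 1136 (cycling), 199 (mitotic) and 186 (mature). Hashtag counts of at least 2 times the cutoff gave 1113 (smooth muscle against fibroblast), 72 (erythroid) and 370 (mature). Cells under 10% mitochondrial UMIs gave 1181 (cycling), and no doublet removal gave 1420 (arterial). Where not stated, the cause was not tested. Higher calls were 37.1% in the erythroid comparison, but 48.4% with DESeq2, 26.1% in the joint fit, 63.9% with the stricter hashtag and 51.5% thinned, and 52.1% in the mitotic comparison, but 62.3% with DESeq2. The joint fit moved the median log2 fold change of all genes by 0.12 (endothelial against fibroblast) and -0.25 (erythroid).

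Without the replicate block, that is without pairing classes by animal, the counts were 3222, 2542, 2134, 5130, 681, 2252, 592, 719, 1590 and 809, and no member's call changed. Leaving out 1 set gave 3257 to 3420, 2114 to 2901, 1823 to 2339, 4635 to 5408, 1396 to 1726 (large-vessel) and 697 to 876 (arterial); comparisons with 2 sets have no such test. Without a small smooth muscle cluster led by Mki67, an alternative chosen after seeing the data, the counts were 3263 and 2162 for endothelial and for fibroblast cells.

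Of 224 alternatives to the 19 called member values, 210 kept the call, 14 lost it and 0 changed sign, all named in the report; 2 of 564 alternatives to the 52 uncalled values gained one, both for Trp53, and 21 of those values changed sign under some alternative. Removal of cells with T cell RNA was not run within T cells or for erythroid cells, and the mitochondrial limit not for mature cells. Detection moved beyond its SD in 93 of 376 alternatives. These include thinning to 2000 UMIs, which raises detection by design, so the count does not measure robustness. Small clusters limit the low genes.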

Other observations

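Fibroblasts of all hashtag states fell into 2 clusters that split the Cip/Kip genes. In 603 cells led by Clec3b and Pi16, Cdkn1a stood at 90.9 CPM (exact 95% Poisson interval 82.8 to 99.6) and Cdkn1c at 260 CPM (246 to 274). In 700 cells led by Lum, Cdkn1a stood at 173 CPM (162 to 184) and Cdkn1c at 91.4 CPM (83.5 to 99.9). The order of the clusters was thus opposite for the 2 genes. The values pool all animals, so there is no replicate and no test, and the clusters were chosen after their values were seen.

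The genes whose levels over the 38 sums were most like further members were Ybx2 (r = 0.89), Hist1h3g (0.88) and Mxd3 (0.87) for Cdkn2c, Rag2 (0.85), Glcci1 (0.84) and Ap3s1 (0.84) for Cdkn2d, Gpatch4 (0.86), Set (0.81) and Srsf11 (0.81) for Trp53, and Mmgt2 (0.68), Map3k5 (0.66) and Slc1a5 (0.64) for Ccng1. Cdkn1b was most like A930003A15Rik (0.81), Gm44175 (0.79) and Mdm4 (0.77). The values for Cdkn2a, Bco2 (0.99), Gm14461 (0.96) and Sh2d1b1 (0.96), rest on 5 UMIs in macrophage-like cells. All are Pearson correlations of log2(CPM + 10) over sums that share animals and libraries, given as a description.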
